A study of Rattus norvegicus with 18 samples.

Results

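The baseline transcriptome of the developing prefrontal cortex (PFC) was described in the SAL pups, the saline control group of a study of oxycodone exposure in rats. Members were the samples titled as saline controls, called SAL here, which gave 6 of the 18 sequenced pups. All 6 were Sprague Dawley offspring, sampled at postnatal day 14 (P14), whose dams had received saline vehicle by oral gavage and no oxy. The dams of the PNO and IUO groups received oxy, and those pups entered none of the values given here. Total RNA of dissected PFC tissue of randomly chosen pups was sequenced, with 1 library per sample. The labels number the pups without naming litter, sex or day of dissection, so the spread between pups holds animal, sex, litter and dissection together, and these cannot be told apart. Y-linked genes summed to 0.59 TPM in pup 5 and to between 77.4 and 93.8 TPM in the others. This uneven split differs from the study's animal list, which gives males and females in equal numbers for the sequenced SAL pups. Levels are given in TPM, the usual RNA-seq unit of transcript abundance, which divides the reads of a gene by its effective length and scales each library to the same total. All means are given with the SD over 6 pups.

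At P14 the rodent cortex lies between the early postnatal and the mature state. Over the first postnatal weeks, NMDA receptors rich in the GluN2B subunit (Grin2b) are joined by receptors with GluN2A (Grin2a). The potassium chloride cotransporter KCC2 (Slc12a5) takes over from NKCC1 (Slc12a2), which turns GABA from a depolarising into a hyperpolarising transmitter. Oligodendrocytes begin to wrap axons with myelin, for which myelin basic protein (Mbp) is required, and fast-spiking basket cells acquire the calcium buffer parvalbumin (Pvalb). These 5 genes served as markers of the stage.

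Of 32623 genes listed, 13427 (41.2%) reached 1 TPM in every pup, and 10414 were at 0 in all of them. A mean of 10 TPM was reached by 9200 genes, 100 TPM by 1586 and 1000 TPM by 83. Expected counts summed to between 18381819 and 24518150 per pup. A gene with a count of 0 may have had up to 3 counts, which is 0.122 to 0.163 CPM (a count scaled to library size but not to length) in these libraries, and this limit covers counting error only. Mitochondrially encoded transcripts took 17.4% to 30.6% of TPM, with the lowest share in pup 6 and the highest in pup 4, and 15 of the 20 highest genes were among them. The highest nuclear genes were Tuba1a, an alpha-tubulin of young neurons, at 5085 ± 454 TPM, Ppia, a peptidyl-prolyl isomerase, at 3924 ± 284 TPM, Ubb, a ubiquitin precursor, at 3757 ± 295 TPM, and Tmsb4x, an actin-binding peptide, at 3664 ± 471 TPM. The beta-tubulin Tubb2a and Cst3, a protease inhibitor secreted by glia, followed at 2628 and 2625 TPM.

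Pup 6, and to a lesser degree pup 4, stood apart from the others before any gene group was considered. The correlation of log2 levels over the expressed genes was lowest between these 2 pups (Pearson's r = 0.928 across 13427 genes, which are not independent replicates) and lay between 0.953 and 0.987 for the other pairs. With pups 1, 2, 3 and 5, pup 4 reached 0.974, 0.984, 0.976 and 0.968, and pup 6 reached 0.958, 0.957, 0.953 and 0.969. The departure followed transcript length. Among 181 genes with an effective length of 8000 bases or more, the median gene of pup 6 was 0.73 log2 units above the median pup and that of pup 4 was at -0.42. Among the 611 genes under 500 bases, pup 6 was at -0.12 and pup 4 at -0.05. In the other 4 pups the largest departure of any length class was 0.08. Many receptor and channel genes have long transcripts, so values without them are given beside the main results that rest on them.

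**Figure D1:**
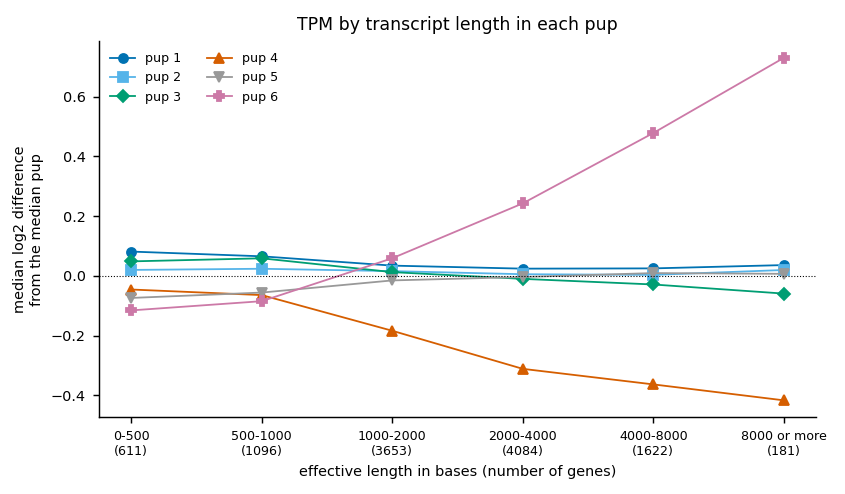
Median difference of each pup from the median pup, in log2 TPM (y axis), for genes grouped by effective length in bases (x axis, number of genes in brackets); points are pups joined by lines. Pup 6 climbs to 0.73 and pup 4 falls to -0.42 in the longest class, while the other 4 pups stay within 0.08 of 0.

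The stage markers differed widely in level and in how far the pups agreed. Grin2b was low, at 2.76, 2.41, 2.80, 1.46, 3.37 and 15.7 TPM in pups 1 to 6. Pup 6 lay far above the other pups, and the mean of 4.75 ± 5.40 TPM became 2.56 ± 0.70 TPM without it. Grin2a stood at 3.09, 3.64, 3.10, 1.09, 5.66 and 19.2 TPM, again highest in pup 6 and lowest in pup 4. Its mean of 5.96 ± 6.63 TPM became 3.32 ± 1.63 TPM without pup 6. Both genes rested on modest depth, with 330 and 335 counts per pup on average, and 187 and 196 without pup 6, over effective lengths of 5187 and 4185 bases.

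Slc12a5 was at 82.0, 89.7, 65.5, 43.7, 83.0 and 139.8 TPM (83.9 ± 32.0), once more with pup 6 at the top and pup 4 at the bottom. Mbp was among the 20 highest nuclear genes, at 1967, 2994, 2709, 3528, 1520 and 664 TPM (2230 ± 1051). For Mbp the order was turned round, with pup 4 highest and pup 6 lowest by a factor of 5.31, which was 2.32 without pup 6. Pvalb was at 21.4, 78.9, 40, 70.6, 33.9 and 14.0 TPM (43.1 ± 26.3), highest in pups 2 and 4 and lowest in pup 6. In bulk tissue fewer cells of a type and less RNA per cell cannot be told apart, which holds for Mbp, for Pvalb and for every cell type list below.

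**Figure D2:**
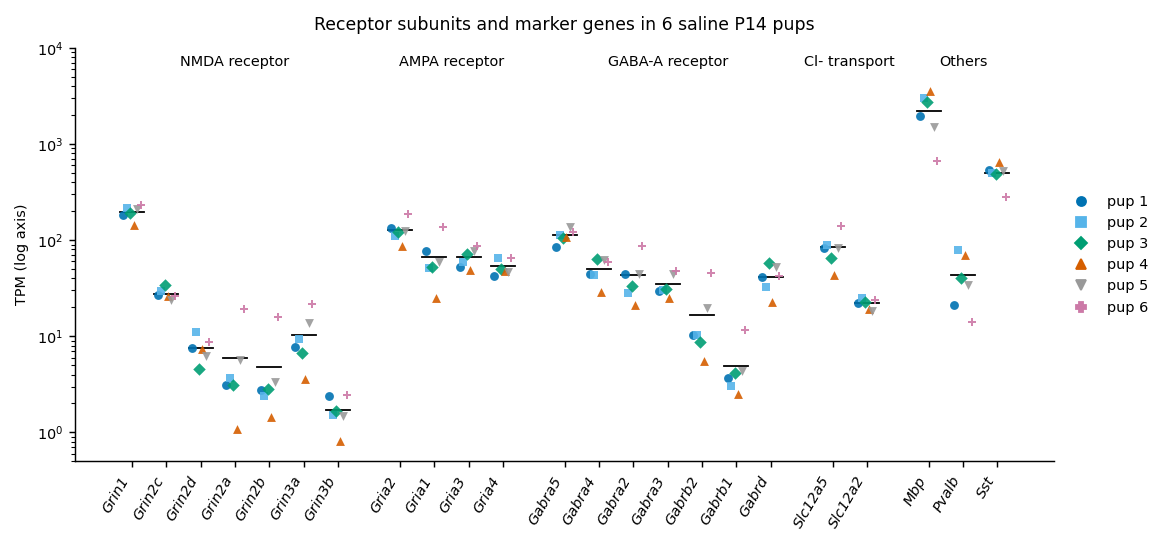
TPM on a log axis of NMDA, AMPA and GABA-A receptor subunits, the chloride cotransporters Slc12a5 and Slc12a2, and Mbp, Pvalb and Sst; each point is a pup and each black line the mean of 6. Grin2a and Grin2b lie below Grin2c in every pup, and pup 6 is the highest of the 6 for both.

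The NMDA receptor, a glutamate-gated and calcium-permeable channel, is built from the obligate subunit GluN1 and subunits that set its kinetics. Grin1, which encodes GluN1, was at 196 ± 30.2 TPM, between 144.0 and 229.8. Among the GluN2 genes Grin2c was highest in each pup, at 26.6, 29.9, 34.0, 26.0, 23.9 and 26.1 TPM (27.8 ± 3.63), and did not overlap with the next gene. Its coefficient of variation (CV, the SD divided by the mean) was 0.13. Grin2d followed at 7.63 ± 2.24 TPM, and its range overlapped with that of Grin2a, as that of Grin2a did with Grin2b. Grin2c made up 62.9% ± 13.7 of summed GluN2 TPM, Grin2d 17.0% ± 5.04, Grin2a 11.2% ± 8.76 and Grin2b 8.91% ± 6.83. Without pups 4 and 6 these shares were 66.9%, 17.2%, 9.22% and 6.73%, so the order was kept. Pup 6 alone had Grin2c down at 37.4% of the sum, with Grin2a at 27.5% and Grin2b at 22.5%. These shares compare deposited TPM between genes, and how fully the reads of each gene were captured was not tested. Of the GluN3 genes, which lower calcium permeability, Grin3a was at 10.4 ± 6.33 TPM and Grin3b at 1.72 ± 0.61 TPM, with Grin3a higher in every pup.

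AMPA receptors carry fast excitation, and GluA2 (Gria2) makes them impermeable to calcium. Gria2 was the highest subunit gene in every pup, at 135.0, 110.9, 122.3, 86.4, 123.2 and 188.7 TPM. It contributed 40.8% ± 1.83 of the summed TPM of the 4 pore subunits, the steadiest share among them. Gria1 took 20.1% ± 5.95, from 12% in pup 4 to 28.6% in pup 6, Gria3 took 21.4% ± 3.38 and Gria4 took 17.7% ± 4.26. The auxiliary subunit cornichon 2 (Cnih2), which aids export and slows the receptor, was at 338 ± 41.2 TPM, above every pore subunit on the mean. It was followed by the type II TARP gene Cacng7 at 110.5 ± 31.9 TPM, whereas stargazin (Cacng2) was at 20.6 ± 7.44 TPM. All 12 AMPA receptor genes that could be matched were expressed.

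Among kainate receptor genes Grik5 stood first, at 98.5 ± 11.9 TPM and 61.9% ± 2.54 of the summed subunits, with no overlap with Grik2 at 23.6 ± 5.42 TPM. The auxiliary genes Neto2 and Neto1 were at 37.9 ± 14.4 and 30.9 ± 7.22 TPM and overlapped. Metabotropic receptors were led by Grm5 in group I (22.7 ± 14.9 TPM), Grm2 in group II (20.6 ± 4.36 TPM) and Grm4 in group III (32.0 ± 12 TPM). Grm6, the receptor of retinal bipolar cells, was at 0.90 ± 0.26 TPM.

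GABA-A receptors are pentamers, most often of alpha, beta and gamma subunits. Gabra5, linked to extrasynaptic inhibition and to early development, was at 84.6, 113.2, 106.1, 109.2, 135.8 and 123.0 TPM. It had the highest mean of the alpha subunits, with 32.7% ± 3.54 of summed alpha TPM, and pup 1 was its lowest pup. Gabra4 (50.3 ± 13.7 TPM), Gabra2 (43.2 ± 23.4 TPM) and Gabra3 (34.7 ± 9.26 TPM) lay below and overlapped with each other. Gabra6, which belongs to cerebellar granule cells, was at 0.94 ± 1.05 TPM. Of the beta subunits, Gabrb2 at 16.6 ± 14.7 TPM was above Gabrb1 at 4.89 ± 3.37 TPM in every pup. The extrasynaptic Gabrd was at 41.5 ± 12.8 TPM. Gabrp was at or near 0, with a mean of 0.05 TPM.

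For slow inhibition, Gabbr1 reached 460 ± 57.9 TPM and Gabbr2, its obligate partner at the membrane, 97.6 ± 27.9 TPM. The glycine receptor was represented by Glrb (97.5 ± 8.32 TPM), whose product is the shared beta subunit, and by Glra2 (18.5 ± 3.04 TPM), the fetal alpha subunit. Glra1, the adult spinal form, was at 0.25 ± 0.20 TPM and rested on 6.83 counts per pup. Among the chloride cotransporters Slc12a5 was above Slc12a2 (22.0 ± 2.64 TPM) and Slc12a7 (3.45 ± 0.69 TPM) in each of the 6 pups. The CV was 0.12 for Slc12a2 and 0.38 for Slc12a5, and 0.13 for both genes without pups 4 and 6.

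The vesicular glutamate transporter Slc17a7 (VGLUT1), which marks cortical projection neurons, was at 501, 752, 810.0, 605, 1073 and 873 TPM. Slc17a6 (VGLUT2), the form used by thalamic and other subcortical afferent neurons, was at 27.3, 63.5, 14.3, 46.4, 6.73 and 23.6 TPM. Slc17a6 was highest in pups 2 and 4 and lowest in pup 5, the pup in which Slc17a7 was highest. Glul, the astrocytic glutamine synthetase, was at 624 ± 149 TPM. GABA was represented by the synthesising enzymes Gad1 (116 ± 52.2 TPM) and Gad2 (81.4 ± 29.3 TPM) and the vesicular transporter Slc32a1 (89.4 ± 40.9 TPM). Gad1 was at 161 TPM in pup 1 and 200 TPM in pup 6, and no higher than 90.3 TPM in the other pups. The glial GABA transporter Slc6a11 was at 57.8 ± 39.5 TPM, with 135.6 TPM in pup 6.

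Voltage-gated sodium channels of excitable membranes were led by Scn2a (66.1 ± 23.3 TPM), the form of immature axons. Scn8a, the form of mature nodes and initial segments, was at 24.3 ± 13.9 TPM. Scn1a, the form that interneurons rely on, was at 21.2 ± 2.73 TPM and Scn3a, an embryonic form, at 20.9 ± 10.6 TPM, and these 3 overlapped. The beta subunit Scn3b (109 ± 15.6 TPM) exceeded every alpha subunit on the mean. Scn4b behaved differently, at 33.8 and 35.2 TPM in pups 1 and 3 and between 1.23 and 4.0 TPM in the other 4. The sensory neuron channel Scn10a was at 0.06 TPM on average.

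Calcium channel alpha subunits were closely spaced, with the T-type Cacna1g at 35.3 ± 9.75 TPM, the P/Q-type Cacna1a at 33.1 ± 8.30 TPM and the N-type Cacna1b at 32.5 ± 7.15 TPM. Cacnb3 was the highest auxiliary subunit at 168 ± 31.1 TPM and did not overlap with the next. Retinal Cacna1f and Cacna2d4 were at means of 0.08 and 0.04 TPM. Potassium channels were led by Kcna6 in the Kv1 group (28.2 ± 4.58 TPM), Kcnc4 in Kv3 (32.0 ± 6.86 TPM), Kcnd3 in Kv4 (15.5 ± 5.44 TPM) and Kcnq5 in Kv7 (31.9 ± 8.43 TPM). Kcnc1 and Kcnc2, which support fast spiking, were at 15.6 ± 4.43 and 17.2 ± 2.26 TPM. Hcn2, one of the pacemaker channel genes, was at 43.8 ± 10.4 TPM, above Hcn3 at 11 ± 2.49 TPM in every pup. The inward rectifier gene Kcnj9 was the highest of its list at 46.7 ± 13.4 TPM and overlapped with Kcnj4 at 44.8 ± 12.2 TPM.

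Receptors for modulators ranged from Chrm1 at 60.4 TPM on average to genes near 0. The nociceptin receptor gene Oprl1 was at 16.2, 21.1, 15.1, 15.2, 17.4 and 23.0 TPM and led the opioid receptor genes without overlap. Oprk1 (kappa) was at 5.09 TPM in pup 1 and between 0.76 and 2.35 TPM in the others. Oprd1 (delta) was at 1.24 ± 0.54 TPM. Oprm1, the mu receptor gene through which oxycodone acts, was at 0.71, 0.55, 0.26, 0.28, 0.60 and 2.01 TPM. It was the lowest of the 4 on the mean and rested on 18.2 counts per pup. The opioid precursor Penk was at 407, 46.4, 223, 56.9, 49.1 and 51.3 TPM, high in pups 1 and 3 as Scn4b was. The same pups were on top for 2 of the dopamine receptor genes, with Drd1 at 41.3, 5.20, 28.7, 4.58, 10.7 and 6.49 TPM and Drd2 at 39.4, 7.74, 29.7, 7.26, 7.5 and 3.29 TPM. Drd4 was at 0.09 TPM on average. Among serotonin receptor genes Htr2c was highest (31.8 ± 17.3 TPM, from 10.1 in pup 5 to 60.3 in pup 1), ahead of Htr2a (10.5 ± 5.16 TPM). Htr2b and Htr3b were at 0.03 TPM each. Adra2c had the highest mean of the adrenergic genes at 14.1 ± 7.05 TPM and overlapped with Adra2a at 11.8 ± 2.50 TPM, and Adrb3 was at 0.09 TPM. Chrm1, the principal cortical muscarinic receptor, was at 60.4 ± 19.9 TPM without overlap with Chrm4, and Chrnb2 (24.7 ± 12.1 TPM) and Chrna4 (22.5 ± 4.85 TPM), partners in the main high-affinity nicotinic receptor of the brain, overlapped. Chrna9 and Chrna10, which serve cochlear hair cells, were at 0.02 and 0.08 TPM.

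At the postsynaptic density, PSD-95 (Dlg4) was at 362, 401, 457, 251, 527 and 521 TPM and SAP102 (Dlg3), the form of young synapses, at 91.8 ± 13.5 TPM. The kinase genes Camk2b and Camk2a were at 458 ± 94.7 and 277 ± 160 TPM. In pup 6 they were nearly level, at 583 and 574 TPM, and in pup 4 Camk2a was at 106 TPM beside 297 TPM for Camk2b. The scaffold gene Shank3 was at 121 ± 22.3 TPM. Of the neurotrophin genes Bdnf was the highest ligand on the mean at 7.07 ± 2.11 TPM, overlapping with Ntf3, and its receptor Ntrk2 (TrkB) the highest receptor at 84.2 ± 32.7 TPM. The light neurofilament gene Nefl was at 408 ± 58.0 TPM and the heavy form Nefh, which is added late, at 37.3 ± 13.3 TPM, with 63.6 TPM in pup 2 and at most 36.7 TPM elsewhere. In all, 221 of 224 receptor, channel and synapse genes listed in 22 families had a match in the tables, and 176 of them (79.6%) were expressed in every pup, against 41.2% of all listed genes.

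Levels of 2 genes were next compared within each pup, for 34 pairs fixed by their roles. A pair was called where the adjusted p-value of a two-sided exact permutation test (sign flips of the 6 log2 ratios) was under 0.05 and 6 of 6 pups had the same direction. That test can reach no p below 0.03125, which is 0.0425 after Benjamini-Hochberg adjustment over the 34 pairs, and every call had this value. The test asks only whether the mean ratio differs from 0 over these 6 pups. A bias between 2 genes that all pups share would be called as well. Of the 34 pairs 25 were called, or 73.5%, in 13 with the first gene higher and in 12 with the second. The 26 pairs given here hold 19 of these calls.

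Of the pairs, 18 set a form known to rise with age against one known to prevail earlier, and 14 of these were called. The later form was the higher in 6 of them, of which 4 are given. Slc12a5 exceeded Slc12a2 by 1.85 ± 0.48 log2 units, a factor of 3.60, from 2.25 in pup 4 to 5.84 in pup 6. Slc17a7 exceeded Slc17a6 by 4.96 ± 1.44, Dlg4 exceeded Dlg3 by 2.16 ± 0.21, and Mbp exceeded Pdgfra, the receptor of oligodendrocyte precursors, by 6.29 ± 1.10.

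The earlier form was the higher in 8, of which 6 are given. The difference of the later minus the earlier form was -1.53 ± 0.28 for Scn8a and Scn2a. It was -1.64 ± 0.45 for the astrocytic glutamate transporters Slc1a2 and Slc1a3, where the effective length of Slc1a2 was 808 bases against 3783 for Slc1a3. Camk2a minus Camk2b was -0.88 ± 0.49, and in pup 6 it was -0.02, with effective lengths of 1426 bases for Camk2a and 3769 for Camk2b. Nefh was 11.3-fold below Nefl and Pvalb 13.3-fold below somatostatin (Sst), the peptide of an interneuron class that matures sooner. Glra1 was below Glra2 in every pup (0.25 and 18.5 TPM on average), and since Glra1 rested on 6.83 counts per pup the fold followed the pseudocount, at 60.1 with 0.1 TPM added, 15.6 with 1 and 93.0 with 0.01.

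In 4 developmental pairs, 3 of them given, no direction was called. Grin2a minus Grin2b was 0.16, 0.58, 0.14, -0.39, 0.73 and 0.29, so Grin2a was higher in 5 of 6 pups and pup 4 went the other way (0.25 ± 0.39, exact permutation p = 0.188, adjusted p = 0.212). Both genes were highest in pup 6 and lowest in pup 4, and the ratio in pup 6 stayed inside the range of the other pups. Scn1a minus Scn3a was 0.13 ± 0.60, and pup 6 was the lowest at -0.92 (exact permutation adjusted p = 0.631). Rbfox3, the mature neuronal nuclear antigen NeuN, exceeded Dcx, the microtubule protein of migrating neurons, by 0.88 to 1.89 in 5 pups and was level with it in pup 6 at -0.06 (exact permutation adjusted p = 0.0759). This pair depended on length, since the effective length was 1270 bases for Rbfox3 and 8753 for Dcx. In expected counts not divided by length Rbfox3 was the lower in 6 of 6 pups, at -1.50 ± 0.75 (exact permutation adjusted p = 0.0425).

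Among the 16 pairs chosen to describe composition, 11 were called, of which 9 are given. Grin1 exceeded Grin2b by 5.80 ± 0.98 log2 units, with pup 6 apart at 3.86 and the other pups between 5.92 and 6.53. Gria2 exceeded Gria1 by a factor of 2.10 and Gria3 by a factor of 1.92. Kcna1 minus Kcna2 was -1.89 ± 0.69. Grin3a exceeded Grin3b by 2.39 ± 0.62 and Ntrk2 exceeded Ntrk3 by 1.74 ± 0.20. Chrna4 was above Chrna7 by 1.73 ± 0.75, Htr2a above Htr1a by 1.27 ± 0.72 and Gad1 above Gad2 by 0.47 ± 0.29. The last of these rests on the division by length, since Gad1 minus Gad2 was -0.32 in expected counts. Cacna1a and Cacna1b differed by 0.01 ± 0.15, the closest of all pairs, and Drd1 and Drd2 by 0.04 ± 0.62 with 3 pups on either side. Kcnc1 minus Kcnc2 (-0.18 ± 0.37) and Oprm1 minus Oprk1 (-1.47 ± 1.32) were not called either. Oprm1 was below Oprk1 in 5 pups and above it in pup 6. Without pups 4 and 6, 28 of the 34 pairs had the same direction in the 4 pups left, which allow no test at this threshold.

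**Figure D3:**
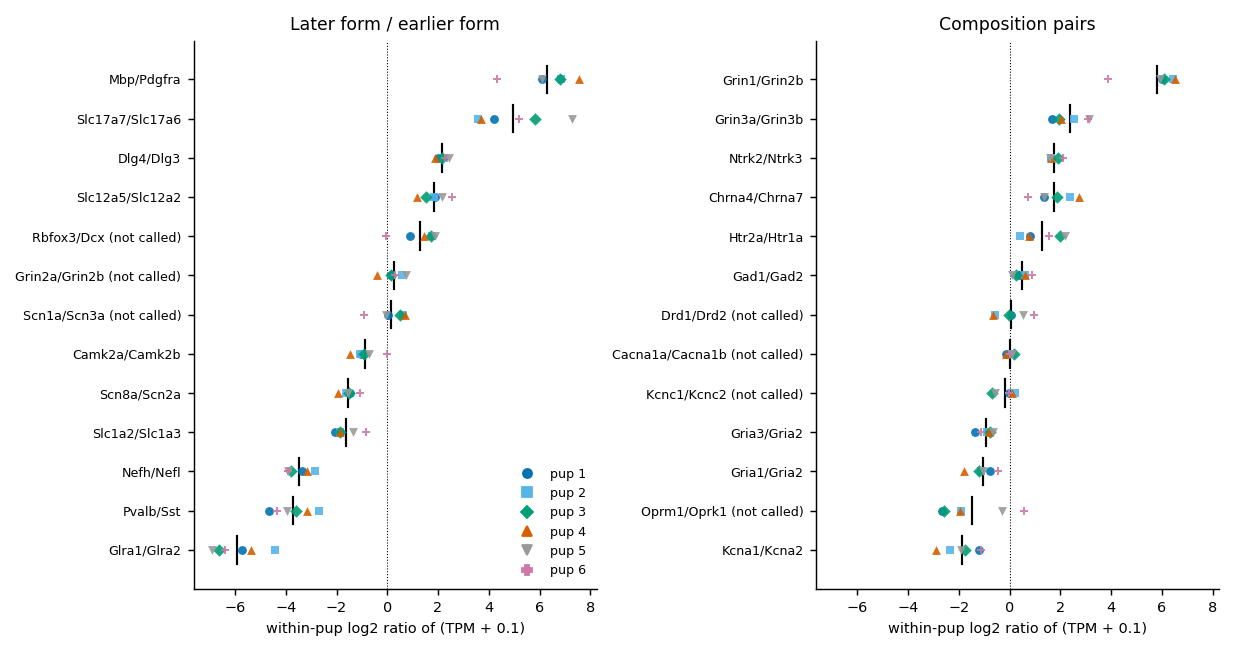
Within-pup log2 ratio of (TPM + 0.1) for 13 developmental pairs (left, later form over earlier form) and 13 composition pairs (right); points are pups, black bars the means, and the dotted line equal levels. The 19 called pairs drawn have all 6 points on 1 side of 0, and Grin1/Grin2b shows pup 6 at 3.86 below the rest.

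The tissue label was checked against cell type markers. General neuronal genes were expressed in every pup, with Stmn2 at 1250 to 1675 TPM, Tubb3 at 970 to 1357 TPM and Rbfox3, the lowest of the list, at 46.5 to 111.4 TPM. Their sum differed by a factor of 1.30 between pups, while the median CV of the 7 genes was 0.20. The 6 excitatory cortical markers were expressed in every pup, with Slc17a7 and Neurod6 (35.5 to 156.4 TPM) highest and Emx1 (4.98 to 17.3 TPM) lowest. Their sum was lowest in pup 1 at 580 TPM and highest in pup 5 at 1362 TPM. Of the upper-layer genes Cux1 and Calb1 were at 83.2 and 92.9 TPM on average and Cux2 at 21.6 TPM. The deep-layer genes Tle4 and Etv1 were at 38.9 and 39.2 TPM and Foxp2 at 6.44 TPM, and the deep-layer sum differed by a factor of 1.26. Nr4a2 was the most uneven of them, at 42.2 TPM in pup 4 and 5.16 TPM in pup 5. The 3 layer 4 genes were low, with Rorb at 4.18 TPM, Rspo1 at 3.34 TPM and Scnn1a at 0.27 TPM.

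Summed interneuron markers were the steadiest of all lists, at 1434 to 1548 TPM, but their members were not. Sst was at 498 ± 117 TPM and cholecystokinin (Cck) at 360 ± 137 TPM, whereas neuropeptide Y (Npy) was at 2.78 TPM and was listed at 0 in pup 1. Sst was lowest in pup 6 at 285 TPM, apart from the other pups at 491 to 643. Dlx1 and Dlx2, transcription factors of young interneurons, were highest in pup 6 at 104.7 and 38.9 TPM. Immature neuron genes ranged from Stmn1 (1931 ± 278 TPM) and Dcx (41.1 ± 37.5 TPM, with 116.4 in pup 6) to Sox11 (7.39 ± 3.24 TPM). The summed olfactory bulb and migrating neuroblast genes were highest in pup 6 as well, at 389 TPM against 11.7 to 61.3 TPM, with Sp8 at 20.1 TPM against 0.55 to 5.59 TPM, and the part of such tissue in Dlx1, Dlx2 and Dcx was not tested.

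Astrocyte genes were led by Aldoc (540 ± 96.6 TPM) and S100b (390 ± 54.2 TPM), with Aldh1l1 lowest at 13.7 TPM. Slc1a2 was the 1 gene of 10 with a CV of 0.5 or more, a limit reached by 7.58% of all genes with a mean of at least 5 TPM. Olig1 (110.3 TPM) and Gpr17 (37.9 TPM) were the highest precursor genes and Cspg4 (8.33 TPM) the lowest. Mature oligodendrocyte genes summed to 3886, 5516, 5420, 5726, 2820 and 1466 TPM, and pup 6 was the lowest for 10 of 10 genes. The share of genes lowest in pup 6 was taken only among those with a CV of 0.5 or more, at 5.69%. Pup 3 was the highest for 7 of the 10 genes, pup 2 for 2 and pup 4 for 1. The oligodendrocyte sum differed between pups by a factor of 3.90, or 2.03 without pup 6, and that of astrocyte genes by 1.45, or 1.38 without pup 6. Mbp had the highest level of the list, and Ermn was lowest at 7.94 TPM. Microglial genes such as Aif1 (63.7 TPM) and C1qb (47.5 TPM) down to Tmem119 (9.82 TPM) and endothelial genes such as Cldn5 (134 TPM) and Esam (26.2 TPM) down to Flt1 (5.82 TPM) were even, their sums differing by factors of 1.36 and 1.41. Mural cell genes, led by Rgs5 (55.5 TPM) and Tagln (16.3 TPM) with Myh11 lowest at 1.78 TPM, and meningeal fibroblast genes, led by Igf2 (66.9 TPM) and Dcn (17.8 TPM) with Ogn lowest at 3.12 TPM, differed by 2.24 and 2.66. Haemoglobin (Hbb) was at 489 to 1617 TPM. Proliferation genes were low, with Cdk1 and Birc5 at 8.94 and 7.98 TPM and Cenpf at 1.2 TPM.

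Markers of neighbouring regions differed between pups. The 10 striatal projection neuron genes summed to 1529, 217, 1199, 196, 355 and 199 TPM, and pups 1 and 3 were the top 2 for 10 of 10 genes. Ppp1r1b (DARPP-32) was at 578 and 507 TPM in these pups and between 25.5 and 135.5 TPM in the others, and Adora2a, the adenosine receptor of indirect pathway neurons, at 94.6 and 71.1 TPM against 2.86 to 14.4. The lowest member, Gpr6, ranged from 6.20 to 23.1 TPM. Drd1, Drd2, Penk and Scn4b, given above, follow the same 2 pups, and the part of striatal tissue in their levels was not tested.

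The choroid plexus list was carried by transthyretin (Ttr), at 527 TPM in pup 1 and 1348 TPM in pup 3 against 6.56 to 69.4 TPM elsewhere. Folr1 was next at 3.61 TPM on average, Prlr was lowest at 0.21 TPM, and 8 of the 10 genes did not reach 1 TPM in every pup. Ependymal genes summed to 43.6, 39.5 and 45.6 TPM in pups 1, 3 and 4 and to 8.31 to 14.4 TPM in the others. Oxytocin (Oxt) was at 83.2 TPM and vasopressin (Avp) at 127 TPM in pup 1. No other pup exceeded 0.28 TPM for Oxt or 5.50 TPM for Avp. Of the 4 hypothalamic genes with a mean of at least 1 TPM, 2 were highest in pup 1 and 2 in pup 4. The olfactory bulb list, highest in pup 6 as given above, had Cdhr1 at 297 TPM and Tbx21, which marks mitral and tufted cells, at 17.0 TPM in pup 6 and at most 1.42 TPM in the other pups. Thalamic genes summed to 14.1 TPM in pup 5 and 57.1 TPM in pup 2, in which Slc17a6 was also at its lowest and highest. Of the hippocampal genes Wfs1 was at 68.3 ± 19.3 TPM and the dentate gene Prox1 at 1.68 ± 0.45 TPM.

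A serotonergic list was added after these values had been seen. Slc6a4, the serotonin transporter, was at 0.34, 3.98, 0.77, 75.5, 1.59 and 0.56 TPM, Tph2, the rate-limiting enzyme of serotonin synthesis in neurons, was at 55.4 TPM in pup 4 against 2.15 to 4.49 TPM, and all 6 genes of the list were highest in pup 4. Fev, a transcription factor of serotonergic neurons, was at 5.80 TPM in pup 4 and at most 0.14 TPM in the others. In all, 4 of these 6 genes reached 1 TPM in every pup, and the list summed to between 15.2 and 23.6 TPM outside pup 4, against 219 TPM in it.

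**Figure D4:**
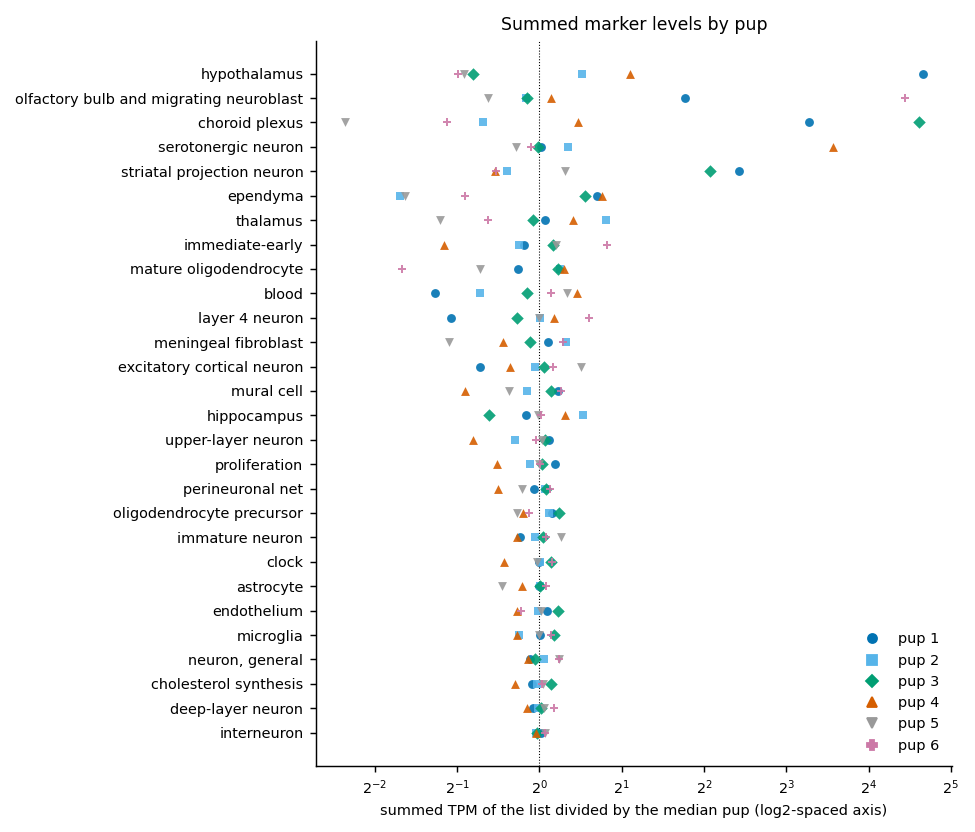
Summed TPM of each list in each pup divided by the median pup, on a log2-spaced axis, with lists ordered from the smallest to the largest CV. Interneuron, deep-layer, neuronal, microglial and endothelial sums lie close to 1, while hypothalamic, choroid plexus, striatal, olfactory bulb and serotonergic sums have 1 or 2 pups far to the right.

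Immediate-early genes, which neurons switch on within minutes of activity, were lowest in pup 4 and, for most of them, highest in pup 6. The 13 genes summed to 360, 345, 462, 184, 471 and 722 TPM. All 13 were lowest in pup 4, and 11 were highest in pup 6. Egr1 was at 34.1 TPM in pup 4 and 165 TPM in pup 6, Arc at 21.4 and 92.7 TPM, and Fos at 9.0 and 63.0 TPM. Of the 11 with a mean of 5 TPM or more, 4 had a CV of at least 0.5 (7.58% of all genes with that mean), and 0 did without pups 4 and 6 (2.36% of all genes). The sum differed by a factor of 3.92 between all pups and of 1.37 without these 2, and the part of the length pattern of these pups was not tested. The share of all genes with a mean of at least 5 TPM that were lowest in pup 4 and highest in pup 6 was 42.7%.

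Their promoters were searched in RefSeq sequence of the rat (GRCr8, 250 bases before to 50 after the start), which held 9 of the 13. The cAMP response element TGACGTCA was found in the promoters of Dusp1 and Ier2, and in 1.91% of 27457 promoters of the same length. Its half-site TGACG, which the full element contains, was in 7 of 9 and in 22.0% of all promoters. The CArG box of serum response factor was in Egr1 and Egr2 and in 1.64% of all, and TATAAA was in 2 of 9 and in 14.3% of all. Both strands were searched, and a match is a run of letters and not evidence of binding. The promoters of 3 of them are shown for their activity-response elements in capitals, each from 250 bases before the start to the base before it, at chr10:17184603-17184852 (plus strand) for Dusp1, chr19:40399123-40399372 (plus strand) for Ier2 and chr20:21054442-21054691 (minus strand) for Egr2.
Dusp1: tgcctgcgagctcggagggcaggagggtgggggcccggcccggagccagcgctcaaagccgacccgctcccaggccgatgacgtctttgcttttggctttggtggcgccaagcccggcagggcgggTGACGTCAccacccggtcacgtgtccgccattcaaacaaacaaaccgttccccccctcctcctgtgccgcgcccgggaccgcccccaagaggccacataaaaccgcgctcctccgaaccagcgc
Ier2: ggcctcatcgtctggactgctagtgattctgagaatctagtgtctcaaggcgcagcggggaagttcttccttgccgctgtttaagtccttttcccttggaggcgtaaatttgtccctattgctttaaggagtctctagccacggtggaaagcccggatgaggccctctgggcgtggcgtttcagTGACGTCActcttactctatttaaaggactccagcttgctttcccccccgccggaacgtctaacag
Egr2: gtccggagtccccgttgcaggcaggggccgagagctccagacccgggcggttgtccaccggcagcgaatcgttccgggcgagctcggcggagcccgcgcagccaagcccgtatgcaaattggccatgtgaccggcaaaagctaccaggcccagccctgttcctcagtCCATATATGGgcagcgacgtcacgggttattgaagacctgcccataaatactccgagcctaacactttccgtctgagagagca
The response element lies 124 bases before the start in Dusp1 and 66 before it in Ier2, and the CArG box 83 before the start in Egr2. In the 6 pups Dusp1 was at 21.2, 28.0, 34.7, 13.8, 29.8 and 39.8 TPM, Ier2 at 17.5, 20.6, 22.2, 10.6, 22.4 and 24.7 TPM, and Egr2 at 3.15, 2.44, 5.37, 0.89, 4.05 and 7.52 TPM, so that pup 4 was lowest and pup 6 highest for each.

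The spread between pups was measured by the CV in 11361 genes with a mean of at least 5 TPM. The median CV was 0.17, and 59.0% of genes were under 0.2. A CV of 0.5 or more was found in 861 genes (7.58%). Pup 6 was the highest in 633 of these and pup 4 the lowest in 607. Without pup 6 the count fell to 310 of 11169 genes (2.78%), and without pups 4 and 6 to 266 of 11267 (2.36%), of which 216 were among the 861.

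Receptor, channel and synapse genes were variable more often than that background, at 37 of 156 (23.7%) with a median CV of 0.29. The share was 9 of 152 without pup 6 (5.92%, against 2.78% of all genes) and 8 of 153 without pups 4 and 6 (5.23%, against 2.36%). The median CV without these 2 pups was 0.18, against 0.10 for all genes. These differences were not tested, and genes of like length were not compared. By effective length, the median CV of expressed nuclear genes was 0.14 at 1000 to 2000 bases and 0.30 at 8000 or more. Of the 37 genes 29 were highest in pup 6 and lowest in pup 4, as were 554 of the 861 variable genes (64.3%). Among the 29 were Cacna1e at 9.23, 7.82, 6.91, 3.5, 9.02 and 40.1 TPM and Kcnq3 at 6.51, 8.80, 8.27, 4.67, 16.3 and 38.5 TPM. The 8 genes still variable in pups 1, 2, 3 and 5 were Penk, Scn4b, Slc17a6, Drd1, Drd2, Pdyn, Htr2c and Adra2c, with CVs between 0.52 and 0.95. All but Slc17a6 were highest in pup 1 or pup 3. Penk, Drd1 and Drd2 are also members of the striatal list, whose sum was highest in these pups, and the part of striatal tissue was not tested.

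A pup isolated from the other 5 on the log2 scale, by a gap test with a 95% limit, was found in 769 of the 11361 genes (6.77%). Pup 6 was that pup in 44.2% of them and pup 4 in 41.5%. The 20 genes with the highest CV held 8 with an effective length under 200 bases and fewer than 20 counts on average, such as the small nucleolar RNA snopsi28S-3327. Among the longer ones were Oxt and Avp in pup 1, Slc6a4, Tph2 and Gchfr in pup 4, Ttr in pups 1 and 3, and Cdhr1, Frmd7, Shisa3 and Ly6g6e in pup 6. Frmd7 was at 24.4 TPM in pup 6 and at most 4.45 TPM in the others, and Shisa3 at 54.9 against at most 7.16 TPM.

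**Figure D5:**
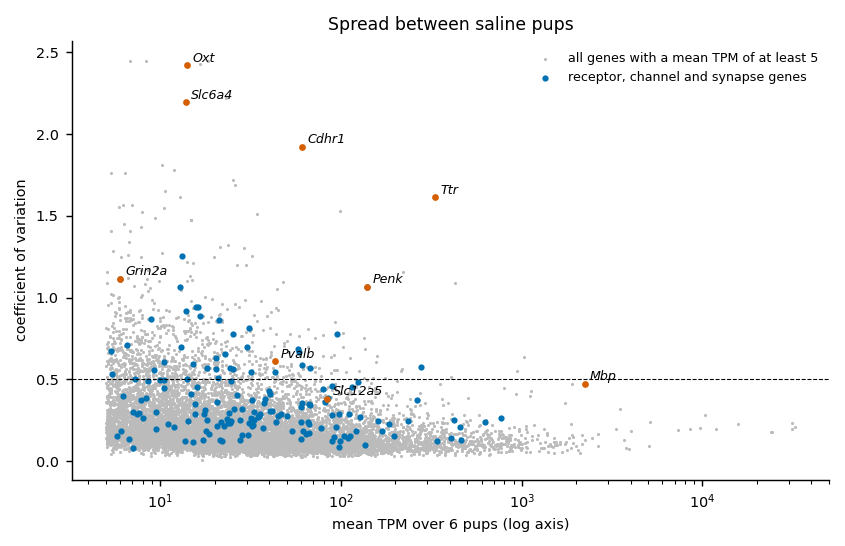
Coefficient of variation over 6 pups against mean TPM (log axis) for 11361 genes; blue points are receptor, channel and synapse genes, orange points named genes, and the dashed line a CV of 0.5. Oxt, Slc6a4, Cdhr1 and Ttr lie far above the line, and Grin2b, with a mean of 4.75 TPM, is under the limit of 5 and is not drawn.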

How the data were processed

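RNA-seq of PFC tissue from 6 SAL pups at P14 was analysed. Libraries were made with a TruSeq kit and read as 75-base single reads on 1 flow cell. The aligner, quantification program, build and annotation are not given in the sources used here. The deposited per-pup tables hold an expected count, TPM, FPKM, length and effective length per gene. The authors derived TPM and expected count from the reads, and the deposited FPKM was not used. TPM was taken as deposited. Expected counts summed to 18381819 to 24518150 per pup, and 83.7% to 84.5% of those above 0 were whole, with no tolerance.

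Genes were expressed at 1 TPM or more in all 6 pups. The CV was taken where the mean reached 5 TPM, and variable meant 0.5 or more. Pairs were compared as log2 ratios of (TPM + 0.1) by a two-sided exact sign-flip permutation test with 64 flips. The gap test was Dixon's, with a critical value of 0.625. Named genes were the 5 markers, both genes of each pair, the highest member of each role in a family and members under 0.1 TPM, the highest 2 and lowest members of each cell type list, and the 20 genes with the highest mean or CV. Other members were named after their values were seen. Gene lists and members were chosen with earlier results of these data known, and the serotonergic list after its values were seen. Of 445 listed symbols 431 were matched, and the rest were not analysed here. Some genes and 8 pairs are not reported here. Alternatives were other thresholds and pseudocounts, TPM rescaled without mitochondrial genes, counts per length, TMM and DESeq2 size factors, edgeR dispersions, and leaving out pups, with pups 4 and 6 left out together chosen after seeing the data. Scripts were tested on simulated data. Python 3.11.15, numpy 2.4.6, pandas 2.3.3, scipy 1.17.1, R 4.3.3, edgeR 4.0.16 and DESeq2 1.42.0 were used.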

Additional observations from a re-analysis of the deposited data

Results flagged for a closer look

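Of 193 levels, list sums and ratios examined, 18 had 1 pup set apart from the other 5 by the gap test, which chance does for about 1 in 20. That rate does not apply to the genes of highest CV or to the serotonergic list, since the former were picked for their spread and the latter was chosen after its values were seen. These 21 results held 9 of the 18, and the other 172 held 9, or 5.23%, which is about that rate. Over all genes with a mean of at least 5 TPM the share was 6.77%. The pup was pup 6 in 6 cases, pup 4 in 5, pup 1 in 3, pups 2 and 5 in 2 each and pup 3 in 0. Among receptor, channel and marker genes, pup 6 was high for Grin2b at 15.7 TPM and for Ntrk2 at 149.21 TPM and low for Sst at 284.61 TPM. Pup 4 was low for Kcna6 at 19.33 TPM, and pup 2 was high for Nefh at 63.61 TPM. The log2 ratio of Grin1 to Grin2b was low in pup 6 at 3.86.

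Among the genes of highest CV, pup 1 was high for Oxt at 83.22 TPM and for snopsi28S-3327 at 110.5 TPM. Pup 2 was high for snoZ6 at 40.92 TPM and pup 5 for Rn50_X_0752.3 at 98.44 TPM. Pup 4 was high for Tph2 at 55.39 TPM and for Gchfr, a regulator of tetrahydrobiopterin synthesis, at 46.17 TPM. Pup 6 was high for snoR38 at 50.14 TPM and for Ly6g6e at 26.06 TPM.

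Among list sums, pup 1 was high for hypothalamic genes at 216.62 TPM and pup 4 for serotonergic genes at 219.47 TPM. The hypothalamic sum of pup 1 was carried by Oxt and Avp. Of the 4 genes of that list with a mean of at least 1 TPM, 2 were highest in pup 4. Pup 4 was low for clock genes at 324.2 TPM, and pup 5 was low for Y-linked genes at 0.59 TPM.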

How the results depend on the processing

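No paired analysis was possible because no groups of samples were compared, and ratios of gene pairs were already taken within each pup. The count of variable genes was 2012 of 14935 at a mean of at least 1 TPM, 8048 of 22209 with no minimum above 0 (median CV 0.32), 194 by edgeR's tagwise dispersion, 310 without pup 6, and 266 without pups 4 and 6 (median CV 0.10). Leaving out each pup in turn gave 310 to 1032 variable genes and median CVs of 0.14 to 0.18. Variable receptor, channel and synapse genes numbered 9 to 44 in the same way, with 9 without pup 6 and 8 without pups 4 and 6. Expressed genes numbered 13473 to 13656, and pairs with the same direction in every pup 25 to 27, with 1 pup left out. With 1 pup left out, the mean was 2.56 to 5.41 TPM for Grin2b, 3.32 to 6.93 for Grin2a, 72.8 to 92.0 for Slc12a5, 1971 to 2543 for Mbp and 36.0 to 48.9 for Pvalb. The lowest Grin2b and Grin2a means are those without pup 6.

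In expected counts not divided by length, 5 log2 ratios changed sign among those given. They were Grin2a to Grin2b at -0.057, Rbfox3 to Dcx at -1.50 (now with the same sign in every pup and past the threshold), Gad1 to Gad2 at -0.32, Kcnc1 to Kcnc2 at 0.27 and Drd1 to Drd2 at -0.15. Low genes such as Oprm1, at 18.2 counts per pup, limit what can be told.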

Other observations

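Cholesterol synthesis genes, which serve myelination, summed to 1498 ± 148 TPM, differed between pups by a factor of 1.35 and had 0 of 13 genes with a CV of 0.5 or more, a limit reached by 7.58% of all genes with a mean of at least 5 TPM. Hmgcs1 was the highest at 408 TPM on average. Of the perineuronal net genes Bcan was at 191 TPM and Acan, the aggrecan of mature nets, at 1.73 TPM on average. Hapln2 was at 21.0 TPM in pup 4 and 0.84 TPM in pup 5.

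The Y-linked genes Eif2s3y and Kdm5d were at 0.16 and 0.01 TPM in pup 5. In the other 5 pups they were at 67.8 to 81.3 TPM and 9.5 to 17.7 TPM. The labels give no sex for these pups.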
